A study of Mus musculus with 12 samples.

Results

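The core pluripotency factors were taken as 10 genes, of 18193 with a probe set of their own: Pou5f1, Sox2, Nanog, Sall4, Lin28a, Utf1, Zfp281, L1td1, Foxd3 and Dppa4. They were measured by the 15 probe sets, of 45037 on the array, whose only gene symbol in the platform annotation was 1 of these names. Expression had been measured in mouse epiblast stem cells (EpiSCs), pluripotent cells that resemble the epiblast after implantation, on 12 arrays in 4 groups of 3 biological replicates each. The groups were haploid EpiSC-2 and haploid EpiSC-1 of strain 129Sv, which carry a single set of chromosomes, and diploid EpiSC-2 and diploid EpiSC-1 of strain B6D2F1. All 4 groups were grown in N2B27 with bFGF and Activin A, and no genetic change or treatment was labelled. Each EpiSC number was read as a separate line. Every haploid line was of one strain and every diploid line of the other, so ploidy and strain cannot be told apart.

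Oct4, the POU-domain protein encoded by Pou5f1, and the SOX-family protein Sox2 bind DNA side by side and switch on genes of the pluripotent state, among them Nanog and their own genes. Nanog, a homeodomain protein, and the zinc finger proteins Sall4 and Zfp281 join this circuit, and Sall4 and Zfp281 also recruit chromatin-modifying complexes. Pou5f1 and Sox2 are expressed both in naive cells of the early blastocyst and in primed cells of the later epiblast, and Sox2 stays on in neural progenitors.

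The sequences just before the annotated starts of Nanog and Sox2 are shown because Sox2 was the factor called between the ploidies, and Nanog is a known target of Oct4 and Sox2. Both are from RefSeq on GRCm38.p6, plus strand, read 5′ to 3′ over the 250 bases before the start, with matches in capitals. The motifs searched on both strands were ATGCAAA (bound by POU proteins), CATTGT (bound by SOX proteins) and a joined motif, CATTGT followed by 1 base of any kind and ATGCAAA, whose matches are also matches of both.
Nanog, chr6:122707239-122707488: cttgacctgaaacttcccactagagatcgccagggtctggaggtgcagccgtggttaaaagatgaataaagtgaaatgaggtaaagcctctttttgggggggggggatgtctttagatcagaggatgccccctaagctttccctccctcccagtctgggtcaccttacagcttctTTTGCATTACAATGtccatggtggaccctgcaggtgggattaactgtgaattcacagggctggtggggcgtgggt
Sox2, chr3:34649745-34649994: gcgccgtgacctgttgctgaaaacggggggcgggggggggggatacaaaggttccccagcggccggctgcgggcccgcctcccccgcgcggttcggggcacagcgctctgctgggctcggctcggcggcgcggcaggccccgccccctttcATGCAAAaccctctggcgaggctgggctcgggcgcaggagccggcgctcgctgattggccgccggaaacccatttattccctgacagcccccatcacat
The capitals before Nanog are the joined motif on the minus strand, from base -75 to base -62 of that start. The same site lies at -151 to -138 of a second annotated Nanog start. Among 32851 windows of 300 bases around annotated mouse starts, these 2 overlapping windows alone held the joined motif (0.00609%). Only the exact letters with 1 free base were searched, so looser forms in other windows were not counted. Nanog was shown as a known target, so its match is no independent finding. The capitals before Sox2 are ATGCAAA on the plus strand at -99 to -93. Windows were listed for 8 of the 10 genes, all but Sall4 and Dppa4, and made 10 in all, since Pou5f1 and Nanog had 2 starts each. ATGCAAA was found in 3 of the 10 windows, against 4.63% of all windows, and CATTGT in 4 of 10, against 12.6%. In both counts the same Nanog site enters through its 2 overlapping windows, so the windows are not independent. ATGCAAA lay before Sox2 and Nanog alone. The CATTGT matches lay before Nanog, Lin28a and the second start of Pou5f1. These are matches of letters, and binding was not measured.

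The values were MAS5 signals on a linear scale, a summary of brightness per probe set, and their logarithms to base 2 were tested. The brightest probe set stood for each gene, and a gene was tested with limma if its log2 signal averaged 5.97 or more (a signal of 62.6), the middle value over probe sets, which left 11105 genes. All 10 factors passed this filter, and 1 of their 15 probe sets did not. Medians of the arrays lay between 63.6 and 76.5, and log2 signals of replicates had correlations between 0.989 and 0.992 across genes. Between the ploidies the unit was the line, so 2 line means were set against 2, and genes with an adjusted p under 0.05 were called. Lines of a ploidy were compared 3 arrays against 3 with the spread within lines. The labels call the replicates biological but do not say that they came from separate cultures, so these p-values measure the spread between these samples, which may be technical. Signals of different probe sets are not on a common scale per molecule, so levels are compared across arrays for each gene and not between genes.

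Markers of primed EpiSCs were checked first. All 12 such markers on the array passed the filter over the 12 arrays, and their summed signal was 50470.0 to 51792 on haploid EpiSC-2 arrays and 38573 to 40159 on haploid EpiSC-1 arrays, against 53164 to 54996 in diploid EpiSC-2 and 55310.0 to 60982 in diploid EpiSC-1. Dnmt3b, Lefty1, Krt18 and Sox4 made up most of each sum. Haploid EpiSC-1 stood apart in other markers of this list. Fgf5, a growth factor gene of the epiblast, averaged 2424 ± 84.9 in haploid EpiSC-2 and 86.9 ± 32.2 in haploid EpiSC-1, against 2332 ± 202 in diploid EpiSC-2 and 3621 ± 202 in diploid EpiSC-1 (SD, n = 3 each). Otx2, a homeobox gene of the primed state, averaged 2289.9 ± 60.6 in haploid EpiSC-2 and 74.0 ± 7.25 in haploid EpiSC-1, against 2133 ± 124 in diploid EpiSC-2 and 3962 ± 94.7 in diploid EpiSC-1 (SD, n = 3 each). Cer1 and Foxa2 were under the filter in haploid EpiSC-1, at 22.7 and 40.7, and above it in the other 3 lines. Foxa2 is also counted in the primitive and visceral endoderm list used below, so these lists are not separate. The label of a primed line thus rests on fewer markers in haploid EpiSC-1. Of 12 naive markers, 5 passed the filter. Fibroblast markers divided the ploidies: the summed signal of 16 such genes was 37280.0 to 37807 in haploid EpiSC-2 and 32034 to 32648 in haploid EpiSC-1, against 5852 to 6113 in diploid EpiSC-2 and 1973 to 2110.2 in diploid EpiSC-1. All 16 had a mean above the filter in each haploid line, against 11 and 7 in diploid EpiSC-2 and diploid EpiSC-1. Acta2, Col3a1, Tagln and Col1a2 made up most of each sum. Of these, Tagln was not called between the ploidies, at 4255 in haploid EpiSC-1 and 3502 in diploid EpiSC-2. Thy1 was not called either and was highest in diploid EpiSC-1, at 203. Neural progenitor markers ran from 2163 to 2986 in the haploid lines, against 3276 to 3951 in the diploid lines in summed signal. That direction rested on Olig1, an oligodendrocyte lineage gene, at 6.31 ± 5.65 in haploid EpiSC-2 and 35.03 ± 5.85 in haploid EpiSC-1, against 1710.2 ± 98.7 in diploid EpiSC-2 and 2206 ± 22.6 in diploid EpiSC-1 (SD, n = 3 each). Without it, a choice made after seeing the data, the other 9 markers summed to 2719.7 to 2974 in haploid EpiSC-2. Haploid EpiSC-1 had 2131 to 2237, against 1705 to 2195 in diploid EpiSC-2 and 1053 to 1250.5 in diploid EpiSC-1. Zic1 held most of the difference between the ploidies in this sum. It averaged 874 in haploid EpiSC-2 and 913 in haploid EpiSC-1, against 12.7 and 4.70 in diploid EpiSC-2 and diploid EpiSC-1. Pax3 and Sox1 were higher in the haploid lines at lower signals, while Nes and Fabp7 were not called between the ploidies. Trophoblast markers also lay apart between the ploidies. The 7 on the array summed to 1903 to 2047.5 in haploid EpiSC-2 and 1896 to 2163.5 in haploid EpiSC-1. Sums were 1015 to 1156 in diploid EpiSC-2 and 912 to 987 in diploid EpiSC-1. Of 4 tested, Cdx2 alone was called (log2 difference 5.77, adjusted p = 0.017). It averaged 357 and 991 in haploid EpiSC-2 and haploid EpiSC-1, against 12.7 and 16.9 in diploid EpiSC-2 and diploid EpiSC-1. In bulk RNA of this kind, fewer cells of a type and less RNA per cell cannot be told apart. The part of fibroblast or trophoblast transcripts in any result below was not tested.

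**Figure D1:**
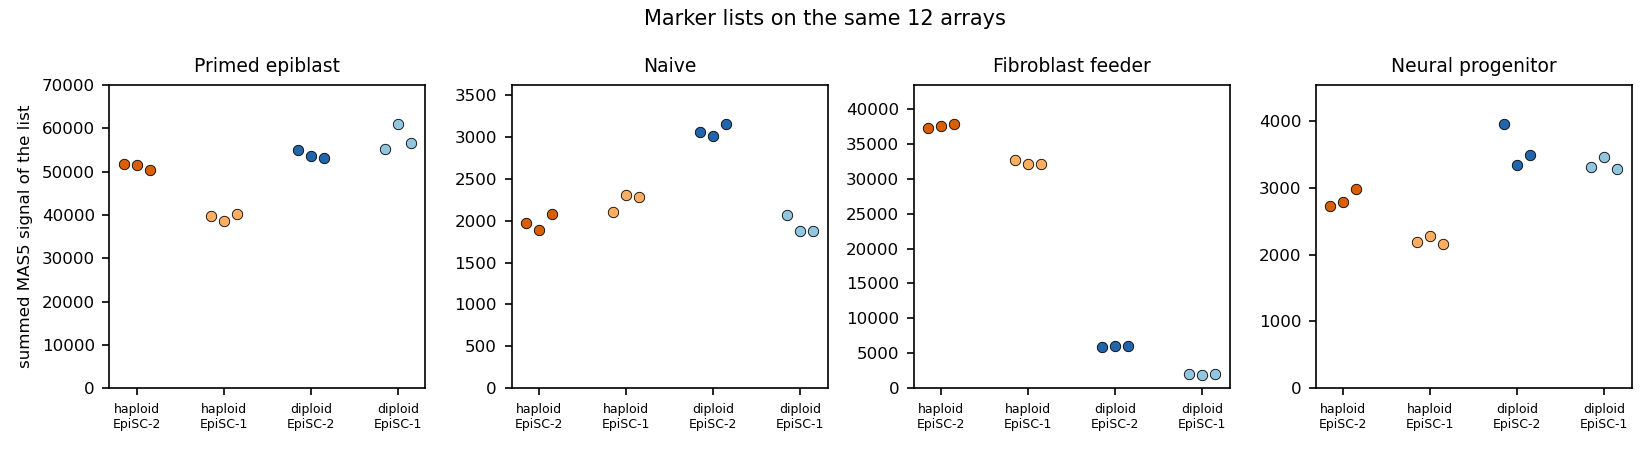
Summed MAS5 signal (linear scale) of 4 marker lists on each of the 12 arrays, 1 point per array. The fibroblast list lies between 32034 and 37807 on the haploid arrays and between 1973 and 6113 on the diploid arrays.

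Between haploid and diploid EpiSCs, 1 core factor was called. Sox2 rose 3.61-fold in the haploid lines, and none of the other 9 factors passed the test. The estimates for Foxd3, Dppa4, Pou5f1, L1td1 and Nanog lay below 0, at -1.37, -1.001, -0.77, -0.74 and -0.66 on the log2 scale. Those for Zfp281, Sall4 and Utf1 were also below 0 but smaller (-0.13, -0.12 and -0.0077), and that for Lin28a was above it (0.042). In all, 1 of 10 factors was called, beside 2.93% of all 11105 genes, and the single call was upward, beside 2.02% of all genes. The median log2 difference of the 10 factors was -0.39, beside 0.0027 over all tested genes. For 3 of the 10, Pou5f1, Sox2 and L1td1, the 6 haploid arrays did not overlap the 6 diploid arrays, which was so for 31.9% of all genes. Of 14 tested fibroblast markers, 7 were higher and 0 lower in the haploid lines, and of 4 tested trophoblast markers, 1 was higher and 0 lower. The actin 3′ to 5′ ratio, a sign of RNA integrity, was 1.34 to 1.42 on haploid arrays, against 1.46 to 1.68 on diploid arrays. The Gapdh ratio was 0.836 to 0.870 on haploid arrays, against 0.821 to 0.85 in diploid EpiSC-1 and 0.913 to 0.938 in diploid EpiSC-2. It thus overlapped between the ploidies, where that of actin did not. The part of fibroblast or trophoblast transcripts, or of RNA integrity, in these differences was not tested.

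**Figure D2:**
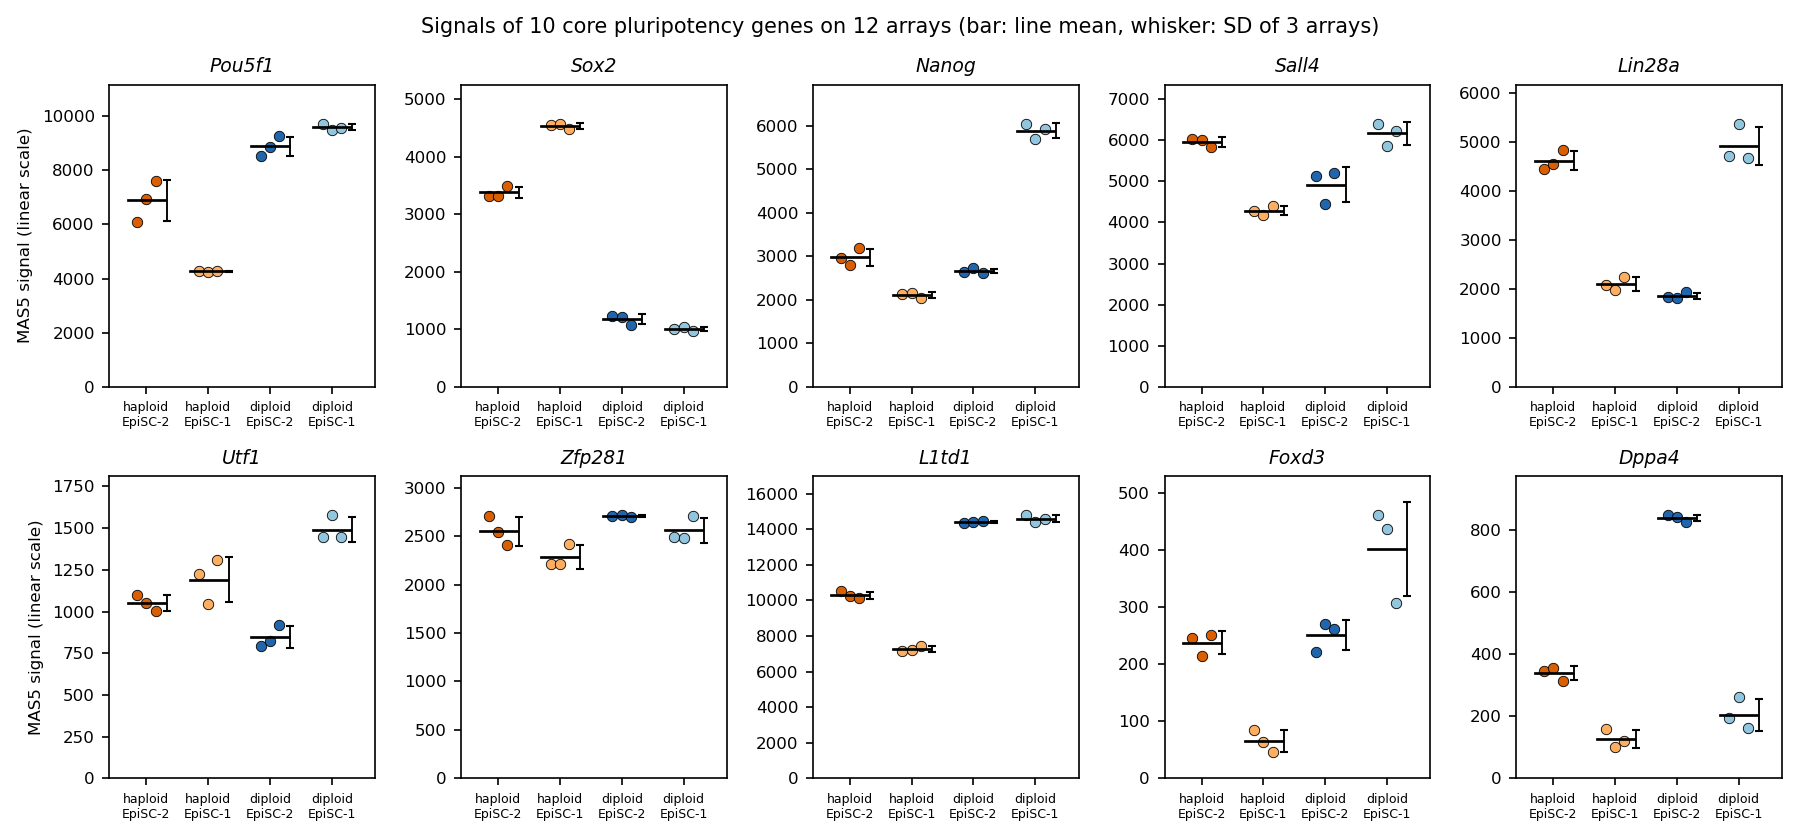
MAS5 signal (linear scale from 0) of the probe set that stands for each of the 10 genes, 1 point per array, with the mean of each line as a bar and the SD of its 3 arrays as a whisker. Sox2 is at 3323 to 4573 on haploid arrays and 964 to 1234 on diploid arrays. Sox2 and most other genes also differ between lines of the same ploidy.

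Sox2 (Entrez 20674, chromosome 3) gave signals of 3324, 3323 and 3500.3 in haploid EpiSC-2 and 4558, 4573 and 4479.5 in haploid EpiSC-1, against 1234, 1220.0 and 1072 in diploid EpiSC-2 and 1009, 1041 and 964 in diploid EpiSC-1. Every haploid array was above every diploid array, and within each ploidy the lines also did not overlap. The difference between line means was 1.85 ± 0.23, adjusted p = 0.0215 (log2, SE, 2 lines of each ploidy), with a 95% interval of 1.29 to 2.42. The call was lost without haploid EpiSC-1 (adjusted p = 0.133) and without diploid EpiSC-1 (adjusted p = 0.0567). Of 5 tested neural progenitor markers, Zic1 (log2 difference 7.26, adjusted p = 0.0151) and Pax3 (3.18, adjusted p = 0.0303) were higher in the haploid lines and Olig1 was lower (-7.27, adjusted p = 0.0215). Sox1, a SOX gene of neural progenitors, was not tested, since its mean over all arrays was under the filter. It averaged 182 ± 3.19 in haploid EpiSC-2 and 88.3 ± 7.21 in haploid EpiSC-1, against 21.3 ± 2.70 in diploid EpiSC-2 and 18.7 ± 12.8 in diploid EpiSC-1 (SD, n = 3 each). Every haploid array was above every diploid array, as for Sox2, but within the haploid lines Sox1 was higher in EpiSC-2 and Sox2 in EpiSC-1. Pax6, another neural progenitor gene, was also not tested and averaged 49.2 ± 16.2 in haploid EpiSC-2 and 26.2 ± 4.50 in haploid EpiSC-1, against 63.6 ± 14.9 in diploid EpiSC-2 and 43.4 ± 1.88 in diploid EpiSC-1. The part of such cells in the Sox2 result was not tested. The long non-coding gene Sox2ot, in whose transcript unit Sox2 lies, was under the filter on every array, with line means of 19.2 and 31.3 in haploid EpiSC-2 and haploid EpiSC-1 and of 4.28 and 10.1 in diploid EpiSC-2 and diploid EpiSC-1. It was chosen after its values were seen.

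Pou5f1 (Entrez 18999, chromosome 17), which encodes Oct4, lay lower on every haploid array. Its signals were 6083, 6951 and 7619.7 in haploid EpiSC-2 and 4278, 4249.9 and 4264 in haploid EpiSC-1, against 8542, 8845 and 9250.4 in diploid EpiSC-2 and 9710.0, 9498 and 9578 in diploid EpiSC-1. The haploid lines lay far apart, with means of 6884 ± 771 in haploid EpiSC-2 and 4264 ± 14.1 in haploid EpiSC-1 (SD, n = 3 each). Over line means the difference was -0.77 ± 0.25, adjusted p = 0.156, with a 95% interval of -1.37 to -0.17. With arrays as units and the line as a random block, a fit that called many unchanged genes in simulated data, Pou5f1 had adjusted p = 0.013. Processed pseudogenes of Pou5f1 and Nanog are annotated in the mouse genome, and their transcripts could add to either signal; this was not tested.

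Nanog (Entrez 71950, chromosome 6) set 1 diploid line apart from the other 3 lines. It gave 2963, 2791 and 3177 in haploid EpiSC-2 and 2133, 2165 and 2039 in haploid EpiSC-1, against 2637, 2725 and 2624 in diploid EpiSC-2 and 6036, 5691 and 5922 in diploid EpiSC-1. The order from the highest was diploid EpiSC-1, haploid EpiSC-2, diploid EpiSC-2 and haploid EpiSC-1, and no neighbours in that order overlapped. The lowest line, haploid EpiSC-1, had 2112 ± 65.7, against 5883 ± 176 in diploid EpiSC-1 (SD, n = 3 each). Between the ploidies the difference was -0.66 ± 0.40, adjusted p = 0.401, with an interval from -1.63 to 0.31, which holds both 0 and a fall of 1 log2 unit.

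Among the 10 probe sets that stand for the factors, those of Zfp281 and Sall4 had the smallest spans over lines, although the dimmer Sall4 probe set spanned 2.56-fold. Sall4 (Entrez 99377, chromosome 2), a zinc finger protein that binds Oct4 and Nanog, gave 6035, 6012 and 5829 in haploid EpiSC-2 and 4271, 4189 and 4401 in haploid EpiSC-1, against 5119.6, 4439 and 5209 in diploid EpiSC-2 and 6397, 5868 and 6233 in diploid EpiSC-1. Its highest lines, diploid EpiSC-1 and haploid EpiSC-2, overlapped. The ploidies differed by -0.12 ± 0.23, adjusted p = 0.797 (interval -0.68 to 0.43). Zfp281 (Entrez 226442, chromosome 1), a zinc finger protein that promotes the primed state in mouse cells, had 2704, 2543 and 2405 in haploid EpiSC-2 and 2216, 2214 and 2423 in haploid EpiSC-1, against 2708, 2713 and 2696 in diploid EpiSC-2 and 2488, 2483 and 2704 in diploid EpiSC-1. No neighbouring pair in its order of lines was free of overlap, and its highest and lowest line means differed 1.19-fold. Its span over the 4 line means, 0.25 on the log2 scale, stood at percentile 6.64 of all tested genes. The difference between ploidies was -0.13 ± 0.19, adjusted p = 0.743, with an interval of -0.58 to 0.33.

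Foxd3 and Dppa4 varied most from line to line. Foxd3 (Entrez 15221, chromosome 4), a forkhead protein of pluripotent cells and of neural crest, had 246, 215 and 252 in haploid EpiSC-2 and 84.3, 64.0 and 46.2 in haploid EpiSC-1, against 222, 271 and 261 in diploid EpiSC-2 and 461, 437 and 308 in diploid EpiSC-1. Haploid EpiSC-1 was the lowest line, with 1 of its 3 arrays below a signal of 62.6 and another close to it, so folds against it are uncertain in size. The difference between ploidies did not pass (-1.37 ± 0.65, adjusted p = 0.294). Dppa4 (Entrez 73693, chromosome 16), a chromatin-associated protein of early embryos that works with Dppa2, gave 344, 356 and 312 in haploid EpiSC-2 and 159, 101 and 120.1 in haploid EpiSC-1, against 846, 841 and 825 in diploid EpiSC-2 and 193, 260.4 and 161 in diploid EpiSC-1. Diploid EpiSC-2 stood at 837 ± 10.8, above the 3 other lines, and diploid EpiSC-1 at 205 ± 50.9 (SD, n = 3 each). The ploidies differed by -1.001 ± 0.77, adjusted p = 0.511, with an interval of -2.88 to 0.88. Spans over the 4 line means were 2.65 for Foxd3 and 2.75 for Dppa4 on the log2 scale, beside a median of 0.72 over tested genes.

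Utf1 (Entrez 22286, chromosome 7), a chromatin-bound protein that is a known target of Oct4 and Sox2, did not follow either of them. It had 1099, 1049 and 1001 in haploid EpiSC-2 and 1223, 1043 and 1307 in haploid EpiSC-1, against 795, 821 and 921 in diploid EpiSC-2 and 1446, 1576 and 1448 in diploid EpiSC-1. The haploid lines overlapped each other and lay between the diploid lines. The difference between ploidies was -0.0077 ± 0.32 (adjusted p = 0.993), with an interval of -0.78 to 0.77.

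The remaining factors bind RNA. L1td1 (Entrez 381591, chromosome 4), an RNA-binding protein derived from a LINE-1 element, was the most evenly measured of the 10, with a within-line SD of 0.0226 on the log2 scale. Its signals were 10513, 10238 and 10131 in haploid EpiSC-2 and 7169, 7211 and 7446 in haploid EpiSC-1, against 14333, 14397 and 14466 in diploid EpiSC-2 and 14780.5, 14387 and 14573 in diploid EpiSC-1. The diploid lines overlapped, both haploid lines lay below them, and haploid EpiSC-1 was the lowest. The line means differed by -0.74 ± 0.20, adjusted p = 0.109 (interval -1.22 to -0.27). With the line as a random block, the fit that called many unchanged genes in simulated data, the adjusted p was 0.000717. Lin28a (Entrez 83557, chromosome 4), which blocks maturation of let-7 microRNAs, gave 4463, 4562 and 4838 in haploid EpiSC-2 and 2083, 1977 and 2249 in haploid EpiSC-1, against 1842, 1806 and 1935 in diploid EpiSC-2 and 4725, 5376 and 4677 in diploid EpiSC-1. High and low lines were found in both ploidies: diploid EpiSC-1 and haploid EpiSC-2 overlapped at the top, while haploid EpiSC-1 and diploid EpiSC-2 lay below without overlap between them. Between the ploidies it differed by 0.042 ± 0.55 (adjusted p = 0.976), with an interval of -1.29 to 1.38.

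The haploid lines differed from each other at nearly every factor. In haploid EpiSC-2 against haploid EpiSC-1, 9 of 10 factors passed, 8 of them higher and Sox2 alone lower. Over all 11105 genes 56.6% passed, 25.7% higher and 31% lower, so that a call in itself is common here. The median log2 difference of the factors was 0.50, beside -0.05 over all tested genes. For 8 of the 10 the arrays of the 2 lines did not overlap, as for 63.6% of all genes. Median centring of the arrays moved the median of all genes to 0.11 and the share of calls that were higher to 65.5%, beside 45.3% as measured, while 9 factors were again called.

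**Figure D3:**
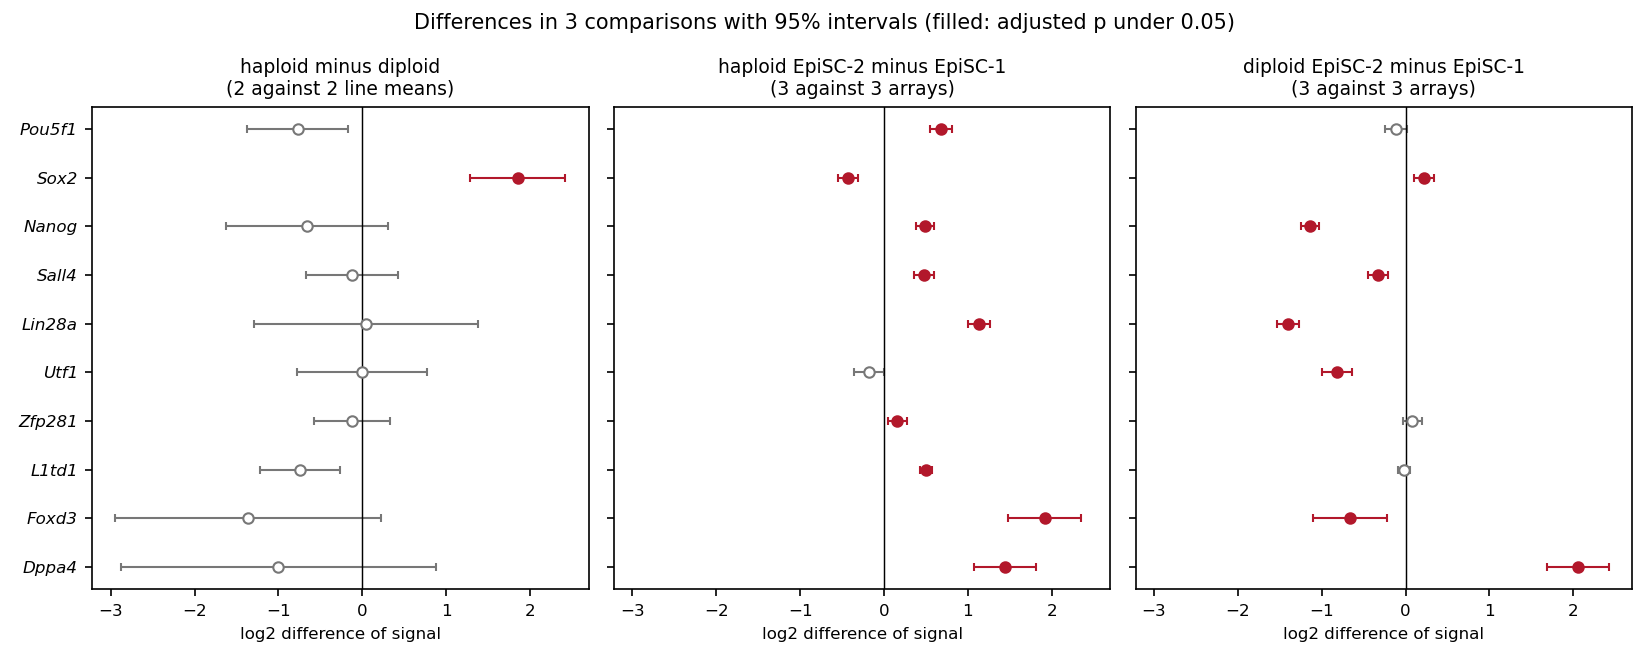
Log2 differences of signal (horizontal axis, the first named minus the second) of the 10 genes in 3 comparisons, with 95% intervals. Filled points passed an adjusted p of 0.05: Sox2 alone between the ploidies, 9 genes between the haploid lines and 7 between the diploid lines.

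Foxd3 rose most in log2 terms, by 1.92 ± 0.20, adjusted p = 1.94e-06 (SE, 3 arrays each), followed by Dppa4 (1.44 ± 0.17, adjusted p = 6.14e-06) and Lin28a (1.14 ± 0.061, adjusted p = 1.9e-09). Pou5f1 was 1.61-fold higher in haploid EpiSC-2 (0.68 ± 0.061, adjusted p = 3.33e-07), with signals of 6884 ± 771, against 4264 ± 14.1 in haploid EpiSC-1. L1td1 rose by 0.50 (adjusted p = 1.37e-08), Nanog by 0.49 (adjusted p = 9.95e-07) and Sall4 by 0.48 (adjusted p = 4.57e-06). Zfp281 passed by a small margin, at 0.16 ± 0.054, adjusted p = 0.0215, and its call was lost without haploid EpiSC-2 replicate 1, without haploid EpiSC-1 replicate 1 and without haploid EpiSC-1 replicate 2, at adjusted p values up to 0.108. Sox2 was at 3383 ± 102 in haploid EpiSC-2, against 4537 ± 50.3 in haploid EpiSC-1, a difference of -0.42 ± 0.055, adjusted p = 1.42e-05. Utf1 did not pass (-0.18 ± 0.082, adjusted p = 0.0802) but did so, at adjusted p = 0.00907, without haploid EpiSC-1 replicate 2. Marker counts here stand beside 25.7% of all genes higher and 31% lower. Of 12 tested primed epiblast markers, 9 were higher and 1 lower in haploid EpiSC-2, while naive markers were 1 higher and 3 lower of 5. Fibroblast markers were 3 higher and 4 lower of 14, near the share of all genes. Primitive and visceral endoderm markers were 3 higher and 0 lower of 5, with sums of 3415 to 3870.1 in haploid EpiSC-2, against 1086 to 1252 in haploid EpiSC-1. Primitive streak and mesoderm markers were 5 higher and 0 lower of 6, with sums of 3591 to 3810.1 in haploid EpiSC-2, against 1302 to 1452 in haploid EpiSC-1. The part of these cell types in the factors' differences was not tested.

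The diploid lines also differed, in another set of directions. In diploid EpiSC-2 against diploid EpiSC-1, 7 of 10 factors passed, 2 higher and 5 lower, beside 55.8% of all genes (26.4% higher and 29.4% lower). Their arrays did not overlap for 8 of the 10 factors, as for 61.5% of all genes, and the median log2 difference was -0.22, beside -0.013 over all genes. Lin28a had the lowest value, at -1.40 ± 0.061, adjusted p = 1.18e-10 (SE, 3 arrays each), or 1861 ± 66.1 in diploid EpiSC-2, against 4926 ± 390.1 in diploid EpiSC-1. Nanog fell 2.21-fold (-1.14 ± 0.049, adjusted p = 1.01e-10). Utf1 fell by 0.82, Foxd3 by 0.66 and Sall4 by 0.33 in log2 units (adjusted p = 9.71e-07, 0.0131 and 0.000155). Averaging the Utf1 probe sets ended its call (-0.081, adjusted p = 0.796). Without diploid EpiSC-2 replicate 1, diploid EpiSC-1 replicate 1 or diploid EpiSC-1 replicate 2 the call of Foxd3 was lost, with adjusted p up to 0.0618. Dppa4 rose 4.18-fold (2.06 ± 0.17, adjusted p = 1.52e-07) and Sox2 by 0.22 (adjusted p = 0.00315). Pou5f1 (-0.11 ± 0.061, adjusted p = 0.134), Zfp281 (0.082, adjusted p = 0.214) and L1td1 (-0.018, adjusted p = 0.664) did not pass. Pou5f1 passed without haploid EpiSC-2 replicate 1, and it and L1td1 passed after quantile normalization. Fibroblast markers were 8 higher and 3 lower of 14 tested in diploid EpiSC-2, and naive markers 4 higher and 1 lower of 5. Primed epiblast markers were 3 higher and 8 lower of 12. Primitive and visceral endoderm markers were 0 higher and 5 lower of 5, with sums of 1134 to 1197 in diploid EpiSC-2, against 1843 to 2052 in diploid EpiSC-1. Their part in the factors' differences was not tested.

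Second probe sets were on the array for Sall4, Lin28a and Zfp281, and Utf1 had 3 in all. Tested among all 19837 single-symbol probe sets above the filter, the dimmer Sall4 probe set gave 0.38 (adjusted p = 0.00313) between the haploid lines and -1.31 (adjusted p = 3.21e-08) between the diploid lines, against 0.48 and -0.33 for the brighter one. It thus had the same directions, with a larger fall in diploid EpiSC-2, where its signal was 421 ± 13.4, against 1045 ± 68.8 in diploid EpiSC-1. The dimmer Zfp281 probe set differed by 0.33 (adjusted p = 0.00992) and 0.35 (adjusted p = 0.00646), so it also passed between the diploid lines, where the brighter one did not. For Lin28a the probe sets disagreed. Its dimmer one scattered within lines, from 256.4 to 664 in haploid EpiSC-2 and from 164 to 259 in diploid EpiSC-1, and passed in neither line comparison, at 0.41 (adjusted p = 0.282) and 0.49 (adjusted p = 0.192). The last of these is opposite in sign to the fall seen with the brighter probe set. Of the dimmer Utf1 probe sets, 1 had 74.9 to 137 over the 12 arrays and passed in no comparison, and the other was under the filter with a signal as low as 5.75.

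Likeness across the 12 arrays was measured as the root mean square difference between gene-centred log2 signals, a description in which all genes share the same arrays. Among the 10 factors, Pou5f1 and L1td1 were the closest pair, at 0.11, and Sox2 and Foxd3 the farthest, at 1.85. Of all tested genes, those nearest to Pou5f1 were Mrps18b (0.0833), Mrps30 (0.0947), both genes of mitochondrial ribosomal proteins, and the apoptosis gene Diablo (0.0956). Sox2 had as its nearest genes Fkbp14 (0.102), which encodes a protein-folding enzyme of the endoplasmic reticulum, the lysosomal membrane gene Lamp2 (0.109) and the G protein subunit gene Gnb4 (0.123). For Nanog they were the deoxycytidylate deaminase gene Dctd (0.101), the retinol dehydrogenase gene Rdh11 (0.127) and the histone acetyltransferase gene Kat2a (0.137).

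Genes around the factors were read from 6 lists, some of which share genes. Between the ploidies, where 2.93% of all genes were called, 0 of 18 other regulators of the network passed in limma. Of the 18, 5 had an unadjusted p under 0.05, a looser threshold than that of the 2.93%. The share of all genes at this threshold was not taken, so no excess can be read from it. Etv5, a transcription factor downstream of FGF signalling, had the lowest p of them at -0.66 ± 0.18, adjusted p = 0.114, followed by the Krüppel-like factor gene Klf4 (1.47 ± 0.51, adjusted p = 0.183) and the helix-loop-helix gene Tcf12 (0.52 ± 0.19, adjusted p = 0.205). Of 13 tested targets of Oct4 and Sox2, 1 rose and 2 fell, with a list median of -0.26, beside 0.0027 over all genes. Fgf4, the growth factor gene whose enhancer Oct4 and Sox2 bind together, fell in the haploid lines although Sox2 was higher there (-2.15 ± 0.36, adjusted p = 0.0428). Its signals were 347 ± 24.3 in haploid EpiSC-2 and 186 ± 14.6 in haploid EpiSC-1, against 1022 ± 64.6 in diploid EpiSC-2 and 1239 ± 42.4 in diploid EpiSC-1 (SD, n = 3 each). The log2 difference was -1.07 for Tdgf1, the co-receptor of Nodal (adjusted p = 0.0446), while Lefty1, an inhibitor of Nodal, rose by 1.09 (adjusted p = 0.0446). No haploid array overlapped a diploid one for any of these 3 targets, as for 31.9% of all genes. The 3 were picked by their low p in this same comparison, so this adds no support. Each of the 3 calls was lost when single lines were left out, with adjusted p values up to 0.155 for Fgf4 and Tdgf1 and 0.200 for Lefty1, and also with a stricter signal filter and without the intensity trend. The call of Lefty1 was also lost after median centring (adjusted p = 0.0716), without diploid EpiSC-1 replicate 1 (adjusted p = 0.0505) and without diploid EpiSC-1 replicate 2 (adjusted p = 0.0504).

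The other 4 lists held 1 call between the ploidies, beside 2.93% of all genes called. None of 16 genes of the NuRD complex and its partners passed in limma. At an unadjusted p under 0.05 there were 2, again without a share of all genes at that threshold. Tet1, an enzyme that oxidises methylated DNA and binds Nanog, was at -1.22 ± 0.23, adjusted p = 0.0575. It passed after median centring (adjusted p = 0.0447), with no signal filter (adjusted p = 0.0459) and without diploid EpiSC-1 replicate 3 (adjusted p = 0.04995). Tet1 also passed in both fits with the line as a random block, a kind of fit that called many unchanged genes in simulated data. The deacetylase gene Hdac1 was at -0.51 (adjusted p = 0.189) and Tet2 at 0.77 (adjusted p = 0.363). In the Lin28 and let-7 list, 1 of 15 rose: Hmga2, a chromatin protein gene repressed by let-7, with signals of 8056 ± 272 in haploid EpiSC-2 and 10473 ± 289 in haploid EpiSC-1, against 4034 ± 47.4 in diploid EpiSC-2 and 2925 ± 84.6 in diploid EpiSC-1 (SD, n = 3 each). Its difference was 1.42 ± 0.23, adjusted p = 0.0408, and up to 0.200 in adjusted p without single lines. The call was also lost with a stricter signal filter (adjusted p = 0.0567) and without the intensity trend (adjusted p = 0.0791). Lin28b, the relative of Lin28a, was under the filter in all lines, at means of 21.9 and 36.1 in haploid EpiSC-2 and haploid EpiSC-1, against 41.1 and 55.5 in diploid EpiSC-2 and diploid EpiSC-1. Trim71, a let-7 target, was at -0.74 (adjusted p = 0.127) and the cyclin gene Ccnd2 at 0.58 (adjusted p = 0.213). Of 6 SOX and POU relatives none passed. Sox3, the nearest relative of Sox2, had 604 ± 38.4 in haploid EpiSC-2 and 264 ± 40.3 in haploid EpiSC-1, against 1026 ± 54.9 in diploid EpiSC-2 and 1265 ± 95.6 in diploid EpiSC-1 (SD, n = 3 each). Its haploid arrays all lay under its diploid ones, opposite to Sox2, but over line means it did not pass (-1.52 ± 0.42, adjusted p = 0.122). Sox11 was at 1.02 (adjusted p = 0.0985) and Sox4 at 0.48 (adjusted p = 0.139). Of 4 tested FoxD, Dppa and Sall relatives none passed, with Dppa5a at -1.52 (adjusted p = 0.0973), Sall2 at 0.81 (adjusted p = 0.159) and Dppa2 at -1.32 (adjusted p = 0.234).

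**Figure D4:**
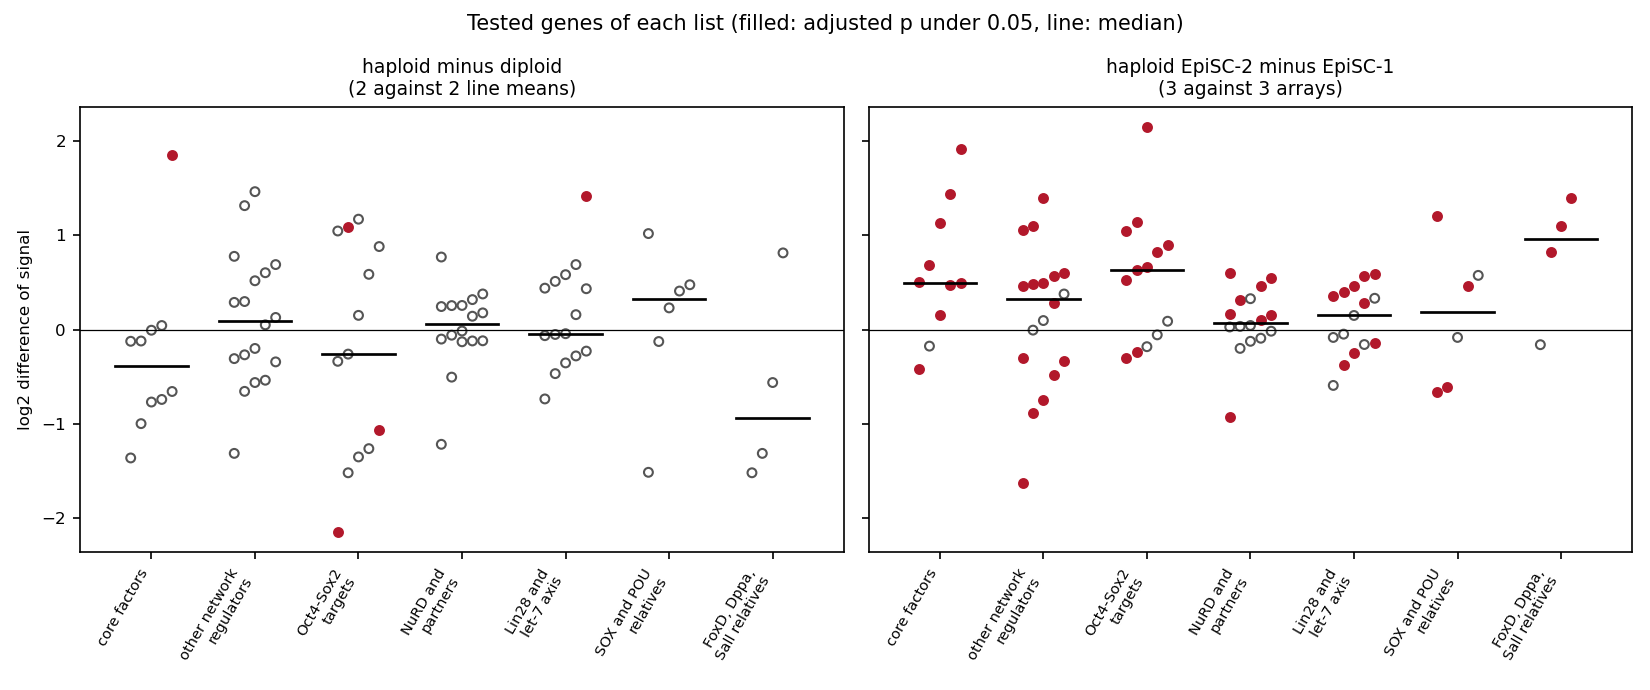
Log2 differences of signal (vertical axis) of the tested genes of the core factors and 6 lists, haploid minus diploid on the left and haploid EpiSC-2 minus haploid EpiSC-1 on the right, with list medians as lines and called genes filled. Medians of the core factors are -0.39 on the left and 0.50 on the right.

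Counts of calls between the haploid lines stand beside 25.7% of all genes higher and 31% lower. Of 13 tested targets of Oct4 and Sox2, 8 rose and 2 fell in haploid EpiSC-2, with a median of 0.63, beside -0.05 over all genes. The methyltransferase gene Dnmt3b rose by 1.05 (adjusted p = 6.78e-09), Fgf4 by 0.90 (adjusted p = 4.87e-07) and Fgfbp1, a carrier of FGF proteins, by 0.67 (adjusted p = 3.04e-06). Other network regulators split, with 9 of 18 higher and 6 lower. Dppa2, the partner of Dppa4, rose by 1.40 (adjusted p = 4.75e-09) and the zinc finger gene Zscan10 by 1.06 (adjusted p = 9.52e-08), while Stat3, the transducer of LIF signals, changed by -1.63 ± 0.07, adjusted p = 1.78e-10. Of 16 NuRD and partner genes, 7 rose and 1 fell: Tet2 was at -0.93 (adjusted p = 2.27e-06), the zinc finger gene Zbtb2 at 0.60 (adjusted p = 1.46e-05) and Tet1 at 0.46 (adjusted p = 4.92e-05). In the Lin28 list 6 of 15 rose and 3 fell, among them Mycn at 0.57 (adjusted p = 2.82e-07), the mRNA-binding protein gene Igf2bp3 at 0.59 (adjusted p = 4.54e-07) and Hmga2 at -0.38 (adjusted p = 1.4e-06). Of 6 SOX and POU relatives 2 rose and 2 fell. Sox3 rose by 1.20 (adjusted p = 1.82e-07) where Sox2 fell, Pou3f1 rose by 0.46 (adjusted p = 1.57e-05) and Sox11 changed by -0.66 (adjusted p = 4.25e-06). Sall1 (1.10, adjusted p = 1.6e-07) and Dppa5a (0.82, adjusted p = 2.1e-05) were higher among the 4 tested FoxD, Dppa and Sall relatives, of which 3 rose and 0 fell. With the mean of all probe sets of a gene, the calls of Zbtb2, Tet1, Mycn and Sall1 were lost.

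Between the diploid lines the same lists were divided in direction, beside 26.4% of all genes higher and 29.4% lower. Calls in the Lin28 list (8 of 15) and among SOX and POU relatives (3 of 6) were near or under the 55.8% of all genes called. Of 18 other network regulators 6 rose and 8 fell in diploid EpiSC-2, with the Krüppel-like factor gene Klf5 at 1.96 (adjusted p = 1.79e-10), Mycn at -0.72 (adjusted p = 2.09e-08) and Zscan10 at -0.97 (adjusted p = 2.04e-07). Of 13 targets of Oct4 and Sox2, 5 rose and 5 fell. Fgfbp1 was 9141 ± 587 in diploid EpiSC-2, against 1822 ± 187 in diploid EpiSC-1, a rise of 2.33 on the log2 scale (adjusted p = 3.35e-12), while Dnmt3b was at -0.59 (adjusted p = 2.25e-06) and Tdgf1 at 0.33 (adjusted p = 2.8e-06). NuRD and partner genes were 4 higher and 7 lower of 16, with the subunit genes Gatad2a, Mta1 and Mbd3 at -0.53, -0.53 and -0.73 (adjusted p = 1.2e-06, 3.73e-06 and 4.49e-06). The call of Mta1 was lost with the mean of its probe sets. In the Lin28 list 5 of 15 rose and 3 fell, with the cyclin gene Ccnd1 at -0.70 (adjusted p = 4.3e-08). Hmga2 was at 0.46 (adjusted p = 1.61e-07, and 0.108 when its probe sets were averaged). Of 6 SOX and POU relatives, Pou3f1 (0.94, adjusted p = 9.72e-09) and Pou6f1 (0.68, adjusted p = 0.000467) rose and Sox3 fell (-0.30, adjusted p = 0.0212, a call lost in 4 alternatives). All 4 tested FoxD, Dppa and Sall relatives passed, 2 in each direction (that of Sall1 was lost with the mean of its probe sets), with Dppa2 at 0.91 beside its partner Dppa4 at 2.06.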

How the data were processed

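RNA of 12 samples was hybridised to Affymetrix 430 2.0 mouse arrays, 3 for each of 4 lines. Per the submitters' processing notes, the deposited values were MAS5 signal intensity values, linear and 1 per probe set, and the MAS5 version was not given in the sources used here. Log2 of these signals was taken with no further scaling. Of 45101 probe sets, 64 were controls and were left out, 34945 had 1 gene symbol, 932 several and 9160 none. The brightest single-symbol probe set stood for each of 18193 genes, and 11105 with a mean log2 signal of at least 5.97 were tested. The test between ploidies used limma 3.58.1 (R 4.3.3, eBayes with an intensity trend) on 4 line means, and lines of a ploidy on 12 arrays with 4 group means. Tests were two-sided with Benjamini-Hochberg adjustment over all tested genes at 0.05. On simulated data the line-mean fit recovered 91% of genes changed 16-fold and 96% of those changed 256-fold. Its 193 calls over both sets held 6 unchanged genes. The fit with the line as a random block made 320 unchanged calls of 519. For the comparison of ploidies no change under 16-fold was simulated. The largest difference of a core factor there was 3.61-fold, for Sox2. These shares thus do not show whether changes of the size seen in the uncalled factors would be found. The group-mean fit recovered 90% of genes changed 2-fold. Alternatives were other scalings, filters, probe set rules and fits, and leaving out arrays or lines. The number of arrays limits the precision. The members and gene lists were chosen with earlier results of these data known. Named genes were every member, up to 3 genes of each list with the lowest p in each comparison, the 3 genes most like Pou5f1, Sox2 and Nanog, and Sox3 and Lin28b.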

Additional observations from a re-analysis of the deposited data

How the results depend on the processing

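Most member and named-gene values kept their direction and side of the threshold, though the comparison of ploidies rests on 2 lines each. There, 601 of 19837 probe sets were called with every probe set tested, 497 genes with no signal filter and 117 with a stricter one, beside 325 as reported. With the line as a random block 1913 genes and 3 members were called, and 1651 and 3 with a replicate block added. Without haploid EpiSC-2, haploid EpiSC-1 or diploid EpiSC-1, 128, 7 and 158 genes were called, and leaving out either EpiSC-1 line left 0 members called. With every probe set tested, 9827 were called between the haploid and 10574 between the diploid lines. Leaving out single arrays gave 299 to 394 genes between ploidies, 5689 to 6354 between haploid lines and 5590 to 6202 between diploid lines, with 1 to 1, 8 to 9 and 6 to 8 members. Uncalled differences between ploidies turned sign for Sall4 (0.12 without haploid EpiSC-1 and 0.042 without diploid EpiSC-1), Lin28a (-0.078 with median centring, -0.53 without haploid EpiSC-2, -0.66 without diploid EpiSC-2), Dppa4 (0.030 without diploid EpiSC-2) and Utf1 (0.050 with the mean of its probe sets, 0.081 without haploid EpiSC-2, 0.40 without diploid EpiSC-1, and -0.043 to 0.039 without single arrays). The cause was not tested. Same-numbered replicates correlated at -0.0466 to 0.0765 and different numbers at -0.0612 to 0.0313. These ranges show no strong pairing of the samples by number but cannot exclude a weak one. A replicate block gave 6309 and 6202 called genes between the haploid and diploid lines.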
